A study of Mus musculus with 9 samples.

Results

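The Cyp2b genes encode cytochrome P450 enzymes of the endoplasmic reticulum. The members described here, Cyp2b9, Cyp2b10 and Cyp2b13, were chosen by symbol from a list of 3 and by a value above 0 in at least 1 liver, and all 3 on the list, out of 23183 gene symbols in the tables, had such a value. The tables hold 5 Cyp2b symbols in all, and the other 2, Cyp2b19 and Cyp2b23, were not on the list, although Cyp2b23 was also above 0 in 1 liver. The choice was made from values of the same livers, so a level above 0 is not a finding.

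Liver RNA was sequenced from 9 male C57BL/6J mice, an inbred strain that becomes obese on a high-fat diet, at postnatal day 100. The ND group (n = 3, mice 6, 7 and 9) received a normal diet with 14% fat for 10 weeks. The HFD group (n = 3, mice 1, 2 and 3) received a diet with 60% fat for 10 weeks. The PRF 50 group (n = 3, mice 3, 9 and 10) received the same 60% fat diet and, in the last 5 weeks, 50 mg/kg per day of PRF, a polymethoxyflavone-rich fraction of Citrus sunki leaves. A mouse number shared by 2 groups does not mean a shared animal. Values are given as log2(FPKM + 1), where FPKM is fragments per kilobase of transcript scaled for sequencing depth.

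CYP2B enzymes oxidise drugs, steroids and other lipophilic compounds, with electrons passed on by the reductase encoded by Por. Their genes are textbook targets of the nuclear receptors CAR, encoded by Nr1i3, and PXR, encoded by Nr1i2, and Cyp2b10 is the usual marker of CAR activity in mouse liver. Cyp2b9 and Cyp2b13 are known as female-predominant liver genes that the male pattern of growth hormone release holds low.

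The tissue label was checked with 11 hepatocyte markers. Their summed level lay between 19850 and 28370 FPKM over the 9 livers, and Apoa1, an apolipoprotein, was the most abundant. Alb, the albumin gene, was listed at 0 in all 9 livers although albumin is the main product of hepatocytes. A value of exactly 0 is therefore reported only as listed at 0. Of 6 small intestine markers, 5 were listed at 0 in every liver, and Muc2 was above 0 only in PRF 50 mouse 9, at 0.01.

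All 3 genes lie on the plus strand of chromosome 7 (GRCm38, GENCODE M21) in the order Cyp2b10 (chr7:25897620-25926624), Cyp2b13 (chr7:26061497-26096197) and Cyp2b9 (chr7:26173411-26210661). The starts of Cyp2b10 and Cyp2b13 were 163.9 kb apart and those of Cyp2b13 and Cyp2b9 were 111.9 kb apart. The longest coding transcript of each had 9 exons. The 250 bases before the RefSeq start of each gene (GRCm38.p6, plus strand, found for all 3 members) are shown because Cyp2b9 and Cyp2b13 were both high in the HFD group whereas Cyp2b10 was not. Capitals mark TATA-like letters close to the start (ATCAAAA or ATAAAA) and, in Cyp2b9 and Cyp2b13, the bases at which those windows differ.
Cyp2b9 (chr7:26173159-26173408): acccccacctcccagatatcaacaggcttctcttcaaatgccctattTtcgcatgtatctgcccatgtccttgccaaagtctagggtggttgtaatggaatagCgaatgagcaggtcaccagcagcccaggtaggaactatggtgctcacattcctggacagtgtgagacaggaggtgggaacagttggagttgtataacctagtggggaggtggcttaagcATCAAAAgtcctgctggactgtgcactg
Cyp2b13 (chr7:26061245-26061494): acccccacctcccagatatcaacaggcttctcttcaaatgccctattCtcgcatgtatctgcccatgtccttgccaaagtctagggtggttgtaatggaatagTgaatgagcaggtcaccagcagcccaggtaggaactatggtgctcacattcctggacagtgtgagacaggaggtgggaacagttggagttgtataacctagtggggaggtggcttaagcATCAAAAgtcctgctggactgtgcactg
Cyp2b10 (chr7:25897408-25897657): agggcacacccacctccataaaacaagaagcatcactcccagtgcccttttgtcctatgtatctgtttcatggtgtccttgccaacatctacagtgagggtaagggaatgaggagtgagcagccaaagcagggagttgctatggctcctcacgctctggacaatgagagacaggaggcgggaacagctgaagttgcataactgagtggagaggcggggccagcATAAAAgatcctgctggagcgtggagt

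The Cyp2b9 and Cyp2b13 windows were identical at 248 of 250 bases. The substitutions were T48C and C104T, with the Cyp2b9 base first and positions counted from 1 at the 5′ end of the window. In a global alignment, Cyp2b9 and Cyp2b10 shared 182 of 240 aligned bases (75.8%). The last 38 bases of the Cyp2b10 window lie inside the GENCODE gene, whose first transcript starts upstream of the RefSeq start.

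Motifs were searched on both strands of these windows and of 32851 RefSeq promoters of the same length. ATCAAAA was present once in Cyp2b9 and once in Cyp2b13, beginning 28 bases before the start, and was absent from the Cyp2b10 window; 3.42% of all promoters held it. ATAAAA was present at 2 places in Cyp2b10, the nearer beginning 27 bases before the start, and 17.0% of all promoters held it. The windows of Cyp2b19 and Cyp2b23 also held ATAAAA, at 2 places and at 1. Both TATA-like strings were picked after the windows had been read. AGGTCA, the half-site of many nuclear receptors, was found once each in the Cyp2b9 and Cyp2b13 windows and not in the Cyp2b10 window. Of the 32851 promoters, 4607 held AGGTCA. It was also found once each in the windows of Cyp2b19 and Cyp2b23, which held no ATCAAAA. TTCNNNGAA, the usual letters of a STAT5 site, was found in none of the 3 windows and in 7.02% of promoters. A match describes letters only, and binding was not measured. Sequence upstream of these windows was not searched. The lack of a match in a window, as for AGGTCA in Cyp2b10, therefore does not show that the gene lacks such a site.

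Cyp2b9 was the most abundant member in the HFD group. In the ND group, its values were 2.84, 1.08 and 0.66 in mice 6, 7 and 9. In the HFD group, they were 6.57, 7.14 and 7.41 in mice 1, 2 and 3. In the PRF 50 group, they were 1.70, 0.88 and 0.55 in mice 3, 9 and 10. All 3 HFD livers were above every ND and PRF 50 liver, a separation that 20.7% of the genes tested also showed in one or the other direction in HFD vs. ND and 26.2% in PRF 50 vs. HFD. Among the rest, the ND and PRF 50 livers overlapped, with ND mouse 6 the highest of those 6. Mean FPKM was 134 ± 37.6 (SD, n = 3) in the HFD group, 2.61 ± 3.07 in the ND group and 1.19 ± 0.943 in the PRF 50 group.

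Mean Cyp2b9 FPKM in the HFD group was 51.5-fold that of the ND group, and 159-fold without ND mouse 6. On the log2(FPKM + 1) scale, which understates changes of low values, the difference was 5.52 (SE 0.51, adjusted p = 0.00419, limma), rank 3 by size among 9978 genes tested. At an adjusted p under 0.05, 1.33% of the genes were called in HFD vs. ND. The HFD mean was 113-fold that of the PRF 50 group, and 206-fold without PRF 50 mouse 3. The PRF 50 minus HFD difference was -6.00 (SE 0.32, adjusted p = 0.000458, limma), rank 2 by size among 10084 genes, of which 3.59% were called. This last difference was known from earlier results of these data. The members were chosen with such results known, so neither p-value gives independent support. Both comparisons use the same HFD mice.

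Between PRF 50 and ND, the Cyp2b9 difference was -0.48 (95% interval -1.75 to 0.79, adjusted p = 0.746, limma), and 0.458% of 10051 genes were called. Without ND mouse 6 it was 0.17, in the opposite direction. The interval allows differences of more than 1 in the downward direction, so equal levels were not shown.

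Cyp2b13, whose product is closely related to that of Cyp2b9, was lower in level but high in the same group. In the ND group, its values were 0.19, 0.12 and 0.06 in mice 6, 7 and 9. In the HFD group, they were 1.66, 2.25 and 3.53 in mice 1, 2 and 3. In the PRF 50 group, it was 0.07 in mouse 3 and listed at 0 in mice 9 and 10. Every HFD liver was above every other liver, and the HFD livers themselves ranged from 2.17 to 10.6 FPKM. Such a separation, in one or the other direction, was shown by 20.7% of the genes tested in HFD vs. ND and 26.2% in PRF 50 vs. HFD.

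A step was chosen of which the low Cyp2b13 values were whole multiples, within 0.05 of a step up to 10 steps. The 4 values checked had to meet this, so their closeness is no support for the step. If that step is 1 fragment, the ND values stand for 3, 2 and 1 fragments and the PRF 50 values for 1, 0 and 0. The HFD values, beyond 10 steps and rounded to whole numbers, stand for 44, 89 and 343. No fold change is given against PRF 50, where the level rests on 1 fragment. HFD minus ND was 2.36 (SE 0.41, adjusted p = 0.0371, limma), and PRF 50 minus HFD was -2.46 (SE 0.42, adjusted p = 0.0321, limma). Cyp2b13 passed the minimum of a mean of 1 FPKM only through the HFD livers, so it had to differ in these comparisons. The adjusted p rose to 0.119 for HFD vs. ND and to 0.0704 for PRF 50 vs. HFD with no minimum level. It was also above 0.05 in HFD vs. ND without any single ND mouse or without HFD mouse 2 (up to 0.136), and in PRF 50 vs. HFD without any single PRF 50 mouse or without HFD mouse 2 (up to 0.0885). With a pseudocount of 0.1 the differences were 4.61 and -5.31, and both were called. Cyp2b13 was under the minimum in PRF 50 vs. ND, with a difference of -0.10.

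Cyp2b10, the member most used to read CAR activity, had another order of groups. In the ND group, its values were 1.94, 1.73 and 0.95 in mice 6, 7 and 9. In the HFD group, they were 0.26, 0.12 and 0.39 in mice 1, 2 and 3. In the PRF 50 group, they were 0.20, 0.09 and 0.14 in mice 3, 9 and 10. All 3 ND livers were above the 6 livers on the 60% fat diet, and the HFD and PRF 50 groups overlapped. Of the genes tested, 20.7% did not overlap between groups in HFD vs. ND and 19.9% in PRF 50 vs. ND. In the same reading of steps as fragments, rounded to whole numbers, the ND values stand for 61, 54 and 21 fragments. The HFD values stand for 4, 2 and 10, and the PRF 50 values for 3, 2 and 2.

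Mean Cyp2b10 FPKM in the ND group was 10.3-fold that of the HFD group and 19.2-fold that of the PRF 50 group. Neither difference was called. HFD minus ND was -1.29 (SE 0.25, adjusted p = 0.0584, limma), and PRF 50 minus ND was -1.40 (SE 0.24, adjusted p = 0.0690, limma). The unadjusted p-values from limma were 0.000861 and 0.000510, and both passed the criterion of an unadjusted p under 0.05 with a fold above 2, as did 1.34% and 1.76% of the genes. With all 9 mice in 1 fit the adjusted p was 0.0297 and 0.0277, with a pseudocount of 0.1 it was 0.0447 and 0.0423, and without ND mouse 9 it was 0.00991 and 0.00902. It was 0.133 and 0.158 with no minimum level, 0.178 in HFD vs. ND without HFD mouse 2, and 0.173 in PRF 50 vs. ND without PRF 50 mouse 3. Cyp2b10 passed the minimum level through the ND livers alone, so it had to differ in both comparisons with ND, and its passing of that criterion is no support. It was under the minimum in PRF 50 vs. HFD, with a difference of -0.11.

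**Figure D1:**
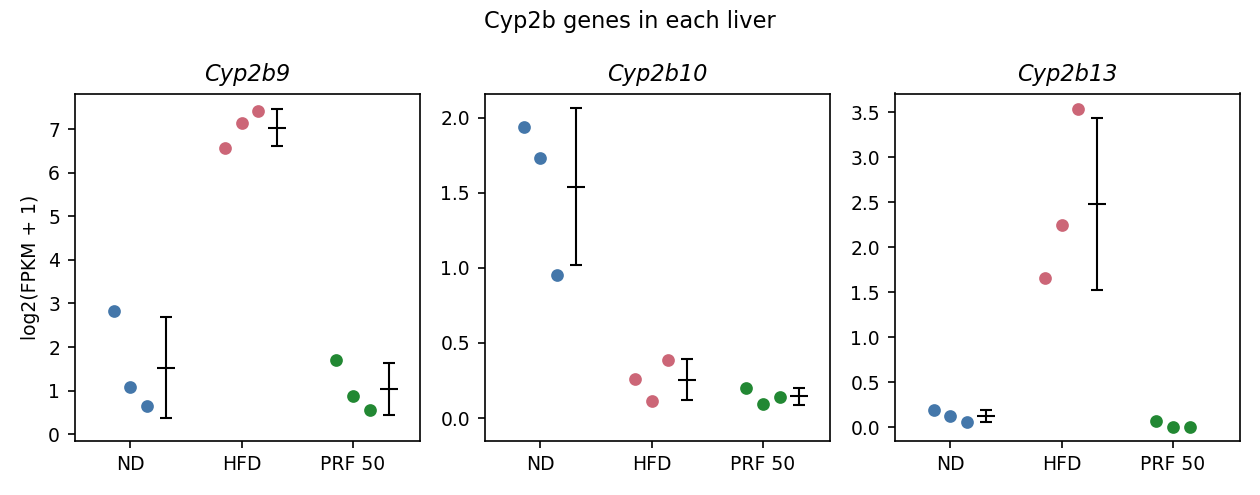
Level of each Cyp2b gene in each of the 9 livers as log2(FPKM + 1), with 1 point per mouse and its own vertical scale per gene; black bars are group means ± SD, left out where a liver is listed at 0. Cyp2b9 and Cyp2b13 are highest in the 3 HFD livers, and Cyp2b10 is highest in the 3 ND livers.

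**Figure D2:**
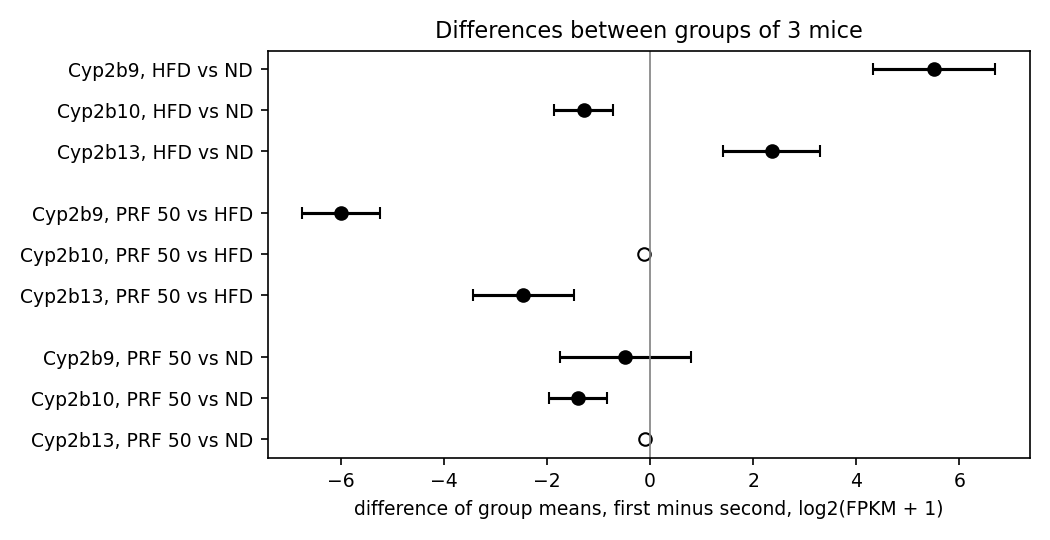
Difference of group means for each gene and comparison on the log2(FPKM + 1) scale, with 95% intervals from limma; open circles are genes under the minimum level, shown without an interval. Cyp2b9 lies at 5.52 in HFD vs. ND and at -6.00 in PRF 50 vs. HFD, and its interval in PRF 50 vs. ND spans 0.

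Cyp2b19 was listed at 0 in all 9 livers. Cyp2b23 was above 0 only in HFD mouse 3, at 0.04. Of the summed FPKM of the 3 members, Cyp2b9 made up 93.9% to 97.6% in the HFD livers, 81.8% to 92.9% in the PRF 50 livers and 31.7% to 67.4% in the ND livers. Cyp2b10 was the larger part in ND mice 7 and 9, where it exceeded Cyp2b9. The summed level ranged from 0.563 FPKM in PRF 50 mouse 10 to 180 FPKM in HFD mouse 3.

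The genes were also compared within each liver. Cyp2b9 minus Cyp2b10 was 6.79 ± 0.41 (SD, n = 3) in the HFD group, -0.01 ± 0.81 in the ND group and 0.90 ± 0.55 in the PRF 50 group. Cyp2b9 minus Cyp2b13 was 4.56 ± 0.59 in the HFD group, 1.40 ± 1.09 in the ND group and 1.02 ± 0.56 in the PRF 50 group. These differences depend on the 1 added to each FPKM. Without it, Cyp2b13 was 2.30% to 6.27% of Cyp2b9 in the HFD livers and 2.27% to 7.70% in the ND livers. Those ranges overlap, so a change in the ratio of these 2 genes between HFD and ND was not shown. In two-sided exact permutation tests with 9 tests in all, 7 gave p = 0.1, the smallest that 3 mice against 3 allow (adjusted p = 0.129). The other exact p-values were 0.3 for Cyp2b9 minus Cyp2b10 and 0.6 for Cyp2b9 minus Cyp2b13, both in PRF 50 vs. ND. With these group sizes no test could pass 0.05. With a pseudocount of 0.1, Cyp2b9 minus Cyp2b13 moved from 3.16 to 1.64 in HFD vs. ND, from -3.54 to -1.62 in PRF 50 vs. HFD and, with a turn in direction, from -0.38 to 0.019 in PRF 50 vs. ND. Cyp2b9 minus Cyp2b10 moved from 0.91 to 2.58 in PRF 50 vs. ND.

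Sharing of reads between the genes could affect these levels. The transcripts of Cyp2b9 and Cyp2b13 were identical at 91.9% of aligned bases. Of 1777 windows of 100 bases in the Cyp2b9 transcript, 21 (1.18%) were found unchanged in Cyp2b13, and none in another Cyp2 transcript. For Cyp2b10, 0 of 1817 windows were shared with another Cyp2 transcript. Cyp2b13 stood at 2.30%, 2.69% and 6.27% of Cyp2b9 in HFD mice 1, 2 and 3. It stood at 2.27%, 7.70% and 7.70% in ND mice 6, 7 and 9 and at 2.22% in PRF 50 mouse 3. In PRF 50 mice 9 and 10, Cyp2b13 was listed at 0. How the aligner placed reads with mismatches was not tested.

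The receptors that act on these genes were measured in the same livers. Nr1i3 was 5.66, 5.28 and 5.05 in the ND livers, 6.23, 5.71 and 6.21 in the HFD livers, and 5.06, 5.32 and 4.97 in the PRF 50 livers. All HFD livers were above all others. Groups did not overlap for 20.7% of the genes tested in HFD vs. ND and 26.2% in PRF 50 vs. HFD. Nr1i3 fell in PRF 50 vs. HFD (-0.93, SE 0.17, adjusted p = 0.0336, limma), as did Nr1i2 (-0.67, SE 0.12, adjusted p = 0.0369, limma). In HFD vs. ND the differences were 0.72 for Nr1i3 (adjusted p = 0.148, limma) and 0.47 for Nr1i2 (adjusted p = 0.226, limma), and neither was called. These were the called members among 19 nuclear receptors and factors in PRF 50 vs. HFD, and none of the 19 was called by limma in HFD vs. ND or PRF 50 vs. ND, where 8 and 4 had an unadjusted p under 0.05. Over all genes tested, 15.1% had one in HFD vs. ND, 12.5% in PRF 50 vs. ND and 20.2% in PRF 50 vs. HFD. The median difference of the list was 0.03 in PRF 50 vs. HFD, against -0.015 over all genes tested.

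Among 10 tested genes for the retention and release of CAR, 1 was called in HFD vs. ND and in PRF 50 vs. HFD and none in PRF 50 vs. ND with limma, where 0 had an unadjusted p under 0.05. Over all genes tested, 1.33% were called in HFD vs. ND, 3.59% in PRF 50 vs. HFD and 0.458% in PRF 50 vs. ND. Egfr, the receptor of epidermal growth factor and also a male-biased liver gene, was -1.62 in HFD vs. ND (SE 0.20, adjusted p = 0.0119, limma) and 1.76 in PRF 50 vs. HFD (SE 0.13, adjusted p = 0.00243, limma). None of 12 genes for electron donors and haem synthesis was called in any comparison with limma, and 1 in HFD vs. ND, 2 in PRF 50 vs. HFD and 2 in PRF 50 vs. ND had an unadjusted p under 0.05. Por was -0.07 in PRF 50 vs. HFD and Alas1, the first enzyme of haem synthesis, was -0.65. All 12 were below 0 in PRF 50 vs. HFD, with a median of -0.148 against -0.015 over all genes tested. Of all genes tested, 5344 of 10084 were below 0.

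Over all genes tested, 70 were called higher and 63 lower in HFD vs. ND, 144 higher and 218 lower in PRF 50 vs. HFD, and 16 higher and 30 lower in PRF 50 vs. ND. Of the other target genes of CAR and PXR, those called were all lower. In HFD vs. ND, 4 of 26 tested genes were called, with a list median of -0.37 against -0.009 over all genes tested. They were Cyp3a11 (-2.60), Cyp2c55 (-1.999), the carboxylesterase gene Ces2a (-2.02) and the glutathione transferase gene Gstm3 (-1.48). Between PRF 50 and HFD, 5 of 24 were called, which were Cyp3a25 (-0.67), Abcc3 (-0.998), Abcb1a (-0.75), Aldh1a1 (-0.89) and Ephx1 (-0.79), with a list median of -0.32. Abcb1a reached the minimum level only through the HFD livers and Cyp2c55 only through the ND livers, so each had to differ. Between PRF 50 and ND, 7 of 25 were called, with a list median of -0.86, and the 5 with the smallest p were Cyp3a11 (-4.20), Abcc3 (-1.09), Cyp2c55 (-2.06), Gsta2 (-3.33) and Cyp3a25 (-1.001).

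Cyp3a11, the main PXR target among the P450 genes, was 11.78, 11.70 and 11.30 in the ND livers, 9.12, 8.81 and 9.04 in the HFD livers, and 7.60, 6.51 and 8.07 in the PRF 50 livers. The 3 groups did not overlap, and PRF 50 was the lowest. Of all genes tested, 20.7% did not overlap in HFD vs. ND, 26.2% in PRF 50 vs. HFD and 19.9% in PRF 50 vs. ND. The PRF 50 minus HFD difference was -1.60 (adjusted p = 0.0610, limma) and was not called. Cyp2c29 was -1.13 in HFD vs. ND (adjusted p = 0.0914, limma) and -1.09 in PRF 50 vs. ND (adjusted p = 0.0548, limma), and was not called in either.

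Cyp2b9 and Cyp2b13 are themselves female-predominant, so other sex-biased liver genes were listed. Of 23 listed female-biased genes, 10 were tested in HFD vs. ND and in PRF 50 vs. HFD, and the others were under the minimum level. Of the 10 tested, 2 were called higher in HFD vs. ND, Acot3 (2.22) and Fmo2 (1.07). In PRF 50 vs. HFD, 1 was called lower, Acot3 (-4.27). Acot3 encodes a peroxisomal acyl-CoA thioesterase. The list median was 0.55 in HFD vs. ND and -0.56 in PRF 50 vs. HFD, against -0.009 and -0.015 over all genes tested. Both medians include Cyp2a4, which reached the minimum level only through the HFD livers. In HFD vs. ND, 9 of the 10 were above 0 and 1 was below. None of 9 was called in PRF 50 vs. ND with limma, and 2 had an unadjusted p under 0.05. Of all genes tested, 1.33% were called in HFD vs. ND and 3.59% in PRF 50 vs. HFD. In PRF 50 vs. ND, 12.5% had an unadjusted p under 0.05.

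Of 25 tested male-biased genes, 11 were called lower in HFD vs. ND and none higher, with a median of -1.19. The 5 with the smallest p were Selenbp2 (-2.34), the complement gene C6 (-1.23), the oxysterol hydroxylase gene Cyp7b1 (-1.19), Cyp4a12b (-3.64) and Egfr. Between PRF 50 and HFD, 13 of 26 were called higher and none lower, with a median of 1.09, among them C6 (1.99), Gstp1 (2.10), Moxd1 (4.19) and Serpina1e (4.20). Moxd1 was listed at 0 in all 3 HFD livers and reached the minimum level only through the PRF 50 livers, so it had to differ in both comparisons with that group. The same held of 1 of the 11 in HFD vs. ND, Ugt2b38 (-1.86), named after its values were seen, which passed through the ND livers. Between PRF 50 and ND, 2 of 26 were called higher, Moxd1 (4.04) and C6 (0.77), and 1 lower, Cyp4a12b (-2.28). Of all genes tested, 1.33% were called in HFD vs. ND, 3.59% in PRF 50 vs. HFD and 0.458% in PRF 50 vs. ND. Medians over all genes tested were -0.009 in HFD vs. ND and -0.015 in PRF 50 vs. HFD. The list medians include Moxd1 and Ugt2b38 where these were tested. These comparisons share mice, so the opposite directions are not independent.

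Growth hormone signalling genes were called in HFD vs. ND only for Cish (-1.96, SE 0.32, adjusted p = 0.0318, limma) and Socs2 (-1.17, SE 0.19, adjusted p = 0.0331, limma), 2 of 10 tested. None was called in PRF 50 vs. HFD or PRF 50 vs. ND with limma, where 1 and 2 had an unadjusted p under 0.05. In HFD vs. ND, 5 of the 10 had one. Of all genes tested, 20.2% had one in PRF 50 vs. HFD, 12.5% in PRF 50 vs. ND and 15.1% in HFD vs. ND. In HFD vs. ND, 1.33% of all genes tested were called. Cish was 0.26 in PRF 50 vs. HFD and -1.70 in PRF 50 vs. ND, and Socs2 was 0.66 and -0.51. Cish and Socs2 encode feedback inhibitors that STAT5 induces. Ghr, the growth hormone receptor, was 0.18 and Stat5b was 0.13 in HFD vs. ND, and neither was called. Bcl6 was 1.41 in HFD vs. ND (adjusted p = 0.139, limma) and varied within groups, from 1.55 to 4.48 in the PRF 50 livers. Cux2, a female-biased repressor, was under 0.09 in all 9 livers and was not tested.

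**Figure D3:**
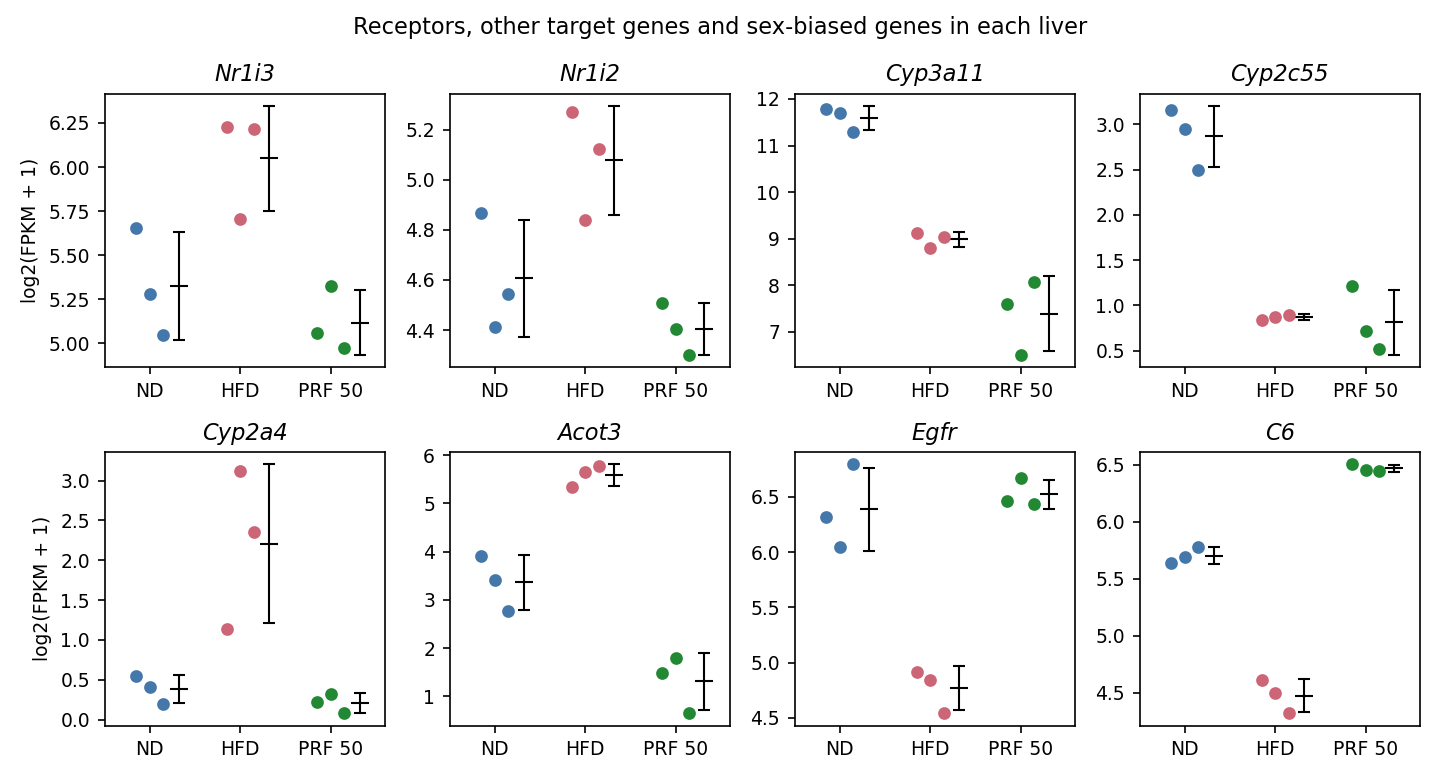
Level of 8 companion genes in each liver as log2(FPKM + 1), with 1 point per mouse, its own vertical scale per gene and black bars for group means ± SD (n = 3). Nr1i3, Cyp2a4 and Acot3 are highest in the HFD livers, as is the group mean of Nr1i2, of which HFD mouse 2 (4.84) lies just under ND mouse 6 (4.87); Cyp3a11 and Cyp2c55 are highest in the ND livers, and Egfr and C6 are lowest in the HFD livers.

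The neighbours in the chromosome 7 Cyp2 cluster were listed to see whether the change was shared along the cluster. None of 6 tested neighbours was called in PRF 50 vs. HFD or in HFD vs. ND, and none of 5 in PRF 50 vs. ND, with limma. An unadjusted p under 0.05 was found for 1, 3 and 2 of them, in that order of comparisons. Of all genes tested, 20.2%, 15.1% and 12.5% had one. Cyp2a4 was 0.55, 0.41 and 0.20 in the ND livers, 1.14, 3.12 and 2.36 in the HFD livers, and 0.22, 0.32 and 0.08 in the PRF 50 livers, so that the HFD livers were above all others. Its difference was 1.82 in HFD vs. ND (adjusted p = 0.107, limma) and -1.997 in PRF 50 vs. HFD (adjusted p = 0.0563, limma). Cyp2a4 reached the minimum level only through the HFD livers, so it had to differ in both. Among all genes tested, 20.7% and 26.2% did not overlap between groups in these comparisons. Cyp2a5, a close copy of Cyp2a4, was -0.39 and -0.13 in the same comparisons.

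The genes most like each member over the 9 livers were ranked by Pearson's r among those whose mean reached 1 FPKM. The 3 groups are part of each r, which is a description. For Cyp2b9 they were Maob (0.976), Cd81 (0.975), Mup12 (0.973), Bdh1 (0.967) and Nnt (0.966), with Spearman's rho from 0.817 to 0.933. Mup12 was listed at 0 in all ND and PRF 50 livers and was 5.35, 6.04 and 6.23 in the HFD livers. Mup12 thus reached the minimum only through the HFD livers, so its likeness to a gene high there was partly fixed in advance. Maob spanned far less, with means of 6.46 in ND, 6.94 in HFD and 6.29 in PRF 50.

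For Cyp2b10 they were Rbm47 (0.977), Gstm1 (0.964), Cyp2c55 (0.963), Gstm6 (0.963) and Ethe1 (0.957), with rho from 0.733 to 0.967. Cyp2c55 and Gstm1 are also in the list of CAR and PXR targets. For Cyp2b13 they were Tpm2 (0.978), Sema5b (0.971), Cog4 (0.965), Osbpl3 (0.962) and Vac14 (0.960), with rho from 0.603 to 0.929. Cyp2c55 reached the minimum only through the ND livers, and Sema5b and Osbpl3 only through the HFD livers. The likeness of these genes to a member high in the same group was partly fixed by that minimum. Between the members, r was 0.934 for Cyp2b9 and Cyp2b13 (rho 0.954), -0.275 for Cyp2b9 and Cyp2b10 (rho 0.1) and -0.318 for Cyp2b10 and Cyp2b13 (rho 0.285).

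Markers of other cell types moved with a group. Of 8 Kupffer cell markers, 7 were called higher in PRF 50 vs. HFD, and the exception was Marco (2.61, adjusted p = 0.135, limma). None was called in HFD vs. ND or PRF 50 vs. ND with limma, where 0 and 8 had an unadjusted p under 0.05. Their summed level was 60.3, 111 and 148 FPKM in the ND livers, 71.2, 122 and 123 FPKM in the HFD livers, and 419, 252 and 275 FPKM in the PRF 50 livers. Cd5l was the most abundant, and none of the 8 was listed at 0 in all livers. Of all genes tested, 3.59% were called in PRF 50 vs. HFD. An unadjusted p under 0.05 was found for 15.1% of all genes tested in HFD vs. ND and 12.5% in PRF 50 vs. ND. In whole liver RNA, a change in the number of cells of a type and a change in their RNA per cell cannot be told apart. The part of this shift in the Cyp2b values was not tested.

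Adipocyte markers summed to 0.583, 6.56 and 13.5 FPKM in HFD mice 1, 2 and 3, and to 1.60 FPKM or less in each ND and PRF 50 liver. Cfd was the most abundant, Plin1 and Lep were listed at 0 in all 9 livers, and Adipoq was above 0 only in HFD mice 2 and 3, at 0.35 and 0.14. Retn was above 0 only in ND mouse 7, at 0.67. Within the HFD group, Cyp2b9 (6.57) and Cyp2b13 (1.66) were also lowest in mouse 1. The part of these markers in the Cyp2b9 and Cyp2b13 values was not tested.

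Of the other marker lists, those tested were 10 of 11 hepatocyte, 8 of 8 periportal, 11 or 12 of 12 pericentral, 5 of 5 endothelial, 5 or 6 of 6 stellate cell and 1 or 2 of 5 cholangiocyte markers, and none was called with limma. Only 1 of 5 adipocyte markers was tested in PRF 50 vs. HFD and in HFD vs. ND, where it was not called, and none was tested in PRF 50 vs. ND. At an unadjusted p under 0.05 the most were 5 of 8 periportal markers in HFD vs. ND, against 15.1% of all genes tested. Cyp2e1 was the most abundant pericentral marker, Clec4g the most abundant endothelial, Dcn stellate and Spp1 cholangiocyte marker.

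**Figure D4:**
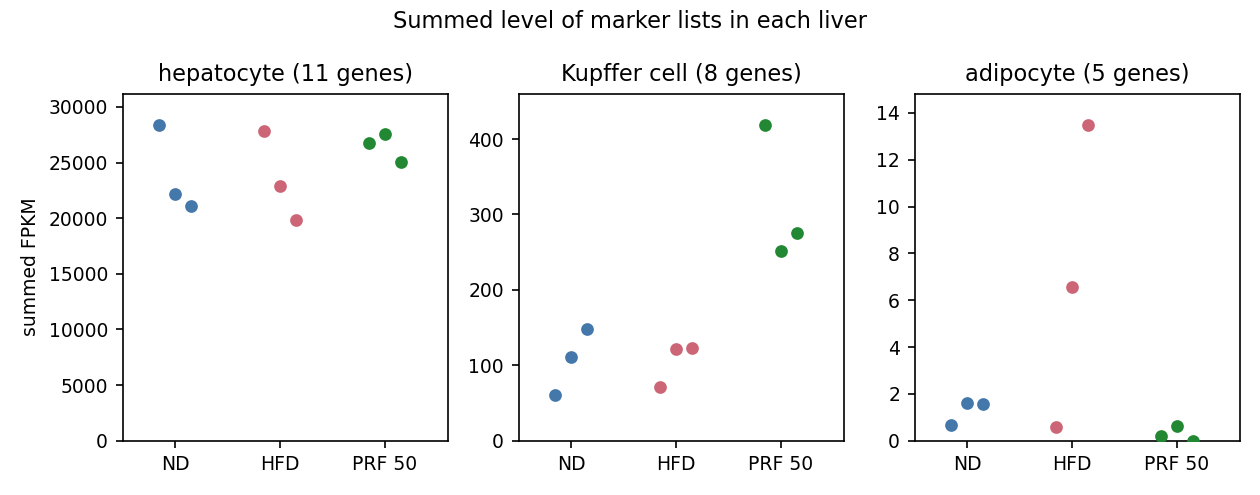
Summed FPKM of the hepatocyte, Kupffer cell and adipocyte marker lists in each liver, with 1 point per mouse and vertical axes that start at 0. The Kupffer cell sum is 252 to 419 in the PRF 50 livers and at most 148 in the others, and the adipocyte sum is highest in HFD mice 2 and 3.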

How the data were processed

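Liver RNA-seq of 9 mice was analysed, 3 per group, grouped by the sample labels. For each mouse the authors deposited a table of log2 values by gene symbol, taken here to be log2(FPKM + 1) because the lowest value is 0. The authors estimated FPKM with Cufflinks and state a geometric normalization with edgeR. The submitters' processing notes name TopHat and mm10. Counts of fragments were not used here. Relative depth, from the most common ratio of low values, was 0.963 to 1.60 of that of HFD mouse 1. Fragment numbers assume that the smallest step of 0.0492 FPKM at the depth of HFD mouse 1 is 1 fragment; Cyp2b10 and Cyp2b13 gave this step separately.

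Groups were compared in R (version 4.3.3) by limma (version 3.58.1), using lmFit and trended eBayes on the 6 mice compared. A gene was tested if its mean reached 1 FPKM, with Benjamini-Hochberg adjustment over all of them. The fit was tested on simulated data. Differences between Cyp2b genes within a liver were compared with exact permutation tests in scipy (version 1.17.1), and sequences were aligned with Biopython (version 1.88).

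The genes named are the Cyp2b symbols, up to 5 called genes with the smallest p per companion list and comparison, 12 genes named whatever their values (Nr1i3, Nr1i2, Por, Alas1, Cyp3a11, Cyp2c29, Cyp2a4, Cyp2a5, Ghr, Stat5b, Bcl6, Cux2), the 5 genes most like each member, and the most abundant gene of each marker list. One gene that met these rules is not reported here. Other markers are named where they were listed at 0 or define a cell type. The members and lists were chosen with earlier results of these data known. Alternatives were a fit of all 9 mice together, each mouse left out, quantile normalization or median-of-ratios scaling, a pseudocount of 0.1, untrended eBayes, a minimum of 10 FPKM or none, the other call rule, and Spearman correlation. Motif letters were searched on both strands of RefSeq promoters.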

Additional observations from a re-analysis of the deposited data

How the results depend on the processing

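Cyp2b9 kept its direction and its call in PRF 50 vs. HFD and in HFD vs. ND under every alternative run. Leaving out 1 mouse gave -6.33 to -5.75 and 5.08 to 6.17, and the other alternatives gave -6.93 to -5.98 and 5.47 to 6.24. In PRF 50 vs. ND it was not called in any, and leaving out 1 mouse gave -0.92 to 0.17, above 0 only without ND mouse 6 (0.175).

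Cyp2b13 lost its call with no minimum level, at -2.46 in PRF 50 vs. HFD and 2.36 in HFD vs. ND, where more genes were tested, and kept it with a pseudocount of 0.1, at -5.31 and 4.61. Leaving out 1 mouse gave -2.87 to -1.93 (adjusted p 0.0226 to 0.0885, limma) and 1.83 to 2.77 (adjusted p 0.0167 to 0.136, limma). Cyp2b10 became called with all 9 mice in 1 fit (-1.29 in HFD vs. ND, -1.40 in PRF 50 vs. ND) and with a pseudocount of 0.1 (-2.79 and -3.26). Leaving out 1 mouse gave -1.58 to -1.22 and -1.69 to -1.37 for it; the adjusted p over all alternatives ran from 0.00991 to 0.178 and from 0.00902 to 0.173 (limma). Leaving out ND mouse 6 or 7 put Cyp2b10 under the minimum level, and a minimum of 10 FPKM removed Cyp2b10 and Cyp2b13 throughout and Cyp2b9 in PRF 50 vs. ND. The causes were not tested.

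Genes called numbered 362, 133 and 46 in PRF 50 vs. HFD, HFD vs. ND and PRF 50 vs. ND. With no minimum level they numbered 126, 37 and 11, with all 9 mice in 1 fit 107 in PRF 50 vs. ND, and with 1 mouse left out 15 to 242, 35 to 140 and 4 to 71. The fewest were found without HFD mouse 3, HFD mouse 3 and ND mouse 7. With an unadjusted p under 0.05 and a fold above 2, companion genes called went from 21 to 18 in PRF 50 vs. HFD, from 19 to 28 in HFD vs. ND and from 10 to 19 in PRF 50 vs. ND. Of the 5 genes most like each member, 3 for Cyp2b9, 3 for Cyp2b10 and 2 for Cyp2b13 were among the 50 with the highest Spearman's rho. With a pseudocount of 0.1, Cyp2b9 minus Cyp2b13 within a liver moved from -0.38 to 0.019 in PRF 50 vs. ND, and Cyp2b10 minus Cyp2b13 moved from 2.35 to 4.84 in PRF 50 vs. HFD, from -3.64 to -7.39 in HFD vs. ND and from -1.30 to -2.56 in PRF 50 vs. ND. No exact test of these could pass 0.05 with either pseudocount. No paired analysis was possible because the groups hold different mice. Values that rest on a few fragments, Cyp2b13 outside the HFD group and Cyp2b10 outside the ND group, are the least certain.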
